A study of Mus musculus with 5 samples.

Results

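Regions of the mouse genome that were bound in both Hoxc9 ChIP-seq lists and in neither Olig2 list are described here. ChIP-seq recovers DNA bound by a protein with an antibody and sequences it. The deposited lists give binding events, each a single base with the reads assigned to it. Events of the 4 lists on the 19 autosomes and the X chromosome were pooled, and events within 200 bp of the previous one were chained into a region. A region was kept when it held an event of the V5 Hoxc9 list and one of the Flag Hoxc9 list and none of the Olig2 lists. This left 6825 of 58192 regions, 11.7% of all. Members were chosen by the presence of events in these same lists, so the values below that come from the Hoxc9 lists describe the members and were not tested.

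The cells were motor neuron progenitors differentiated from mouse embryonic stem cells of the line Ainv15, grown as embryoid bodies. Retinoic acid (1 µM) and the hedgehog agonist SAG (0.5 µM) were added on day 2 to pattern them. The V5 Hoxc9 list came from day 5 cells of a line with inducible V5-tagged Hoxc9, given doxycycline at 3 µg/ml and precipitated with an anti-V5 antibody. The Flag Hoxc9 list came from day 5 cells of another line with inducible Flag-tagged Hoxc9, given the same doxycycline and precipitated with an anti-Flag antibody. The native Olig2 list came from day 4 cells of a line with inducible V5-tagged Olig2 and no doxycycline, with an antibody to Olig2 itself, and the V5 Olig2 list from day 4 cells of that line with doxycycline and anti-V5. Hoxc9 in both of its lists was therefore a tagged protein switched on by doxycycline. The lists of the factors differed in day and line as well as in factor, so a region without an Olig2 event is a region with none listed at day 4. The mock ChIP in uninduced cells was not analysed here. No expression was measured, so the labelled cell stage could not be checked against marker genes.

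Hox proteins are homeodomain transcription factors that give cells their identity along the head-to-tail axis. Their genes lie in clusters, named HoxA to HoxD, and the proteins often bind AT-rich DNA together with cofactors of the Pbx and Meis families. Hoxc9 marks thoracic spinal cord, where it is known to set the identity of motor neuron columns and to repress Hox genes of more anterior levels. Olig2 is a basic helix-loop-helix protein of motor neuron progenitors and binds E-box sequences.

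The files held 11070 events for V5 Hoxc9 and 49288 for Flag Hoxc9, so the Flag list was 4.45 times as long. There was 1 list per condition, the V5 Hoxc9 list being made from 2 libraries, and no value below has a replicate check. Library totals were not used here, so the depth is unknown and IP reads (reads of the precipitated library assigned to an event) were not compared as levels between lists. Intervals beside percentages are Wilson 95% intervals. They reflect counting error alone, and regions close together are not independent.

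Most regions that both Hoxc9 lists held were free of Olig2 events. Members made up 79.9% of the 8539 regions with both Hoxc9 lists (95% interval 79.1 to 80.8). The other 1714 such regions also held an Olig2 event: 971 one of each Olig2 list, 646 one of the native list alone and 97 one of the V5 Olig2 list alone. With a Flag but no V5 Hoxc9 event, 32586 regions held no Olig2 event. Beside them, 1456 held events of both Olig2 lists, 1049 of the native list alone and 180 of the V5 Olig2 list alone. With a V5 but no Flag Hoxc9 event, 1869 held none, and 77, 34 and 29 held them in the same order. The share free of Olig2 events was thus higher in both of these classes than among regions with both Hoxc9 lists. The cause was not tested. As a share of each list's own regions, members were 64.7% of the 10548 regions with a V5 Hoxc9 event and 15.6% of the 43810 with a Flag Hoxc9 event. Members were found on every chromosome used, from 70 on X to 580 on chromosome 2. They made up between 7.25% of regions on X and 13.4% on chromosome 12. Among regions with both Hoxc9 lists, the member share per chromosome ran from 74.7% on chromosome 19 (68.1 to 80.4) to 85.0% on chromosome 16 (80.9 to 88.4).

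The strongest members were sharp, with V5 and Flag events nearly on top of each other. The 10 members named first are those whose worse rank by IP reads in the Hoxc9 lists was best. On chromosome 4, the member at 73149973 to 73149979 had 696.8 V5 IP reads (rank 7) and 2352.1 Flag IP reads (rank 4), and the nearest Olig2 event lay 747912 bp away. On chromosome 6, the member at 117357338 to 117357341 had 681 V5 and 1970.6 Flag IP reads and control values of 0.0 with either tag. By the authors' fold the chromosome 4 member stood apart from the control, at 59.1 for V5. The chromosome 6 member has no readable fold, since 9999.9 is a placeholder listed where control is 0.

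The member with most V5 IP reads lay at 102845099 to 102845100 on chromosome 15, with 742 V5 and 1824 Flag IP reads. Its events were 1 bp apart, and an Olig2 event was listed 1164 bp away. Chromosome 15 carries the HoxC genes, Hoxc9 among them. Where the site lies relative to those genes was not determined, because no annotation of the build was used here. The member at 27704719 to 27704724 on chromosome 8 had 537 V5 and 2738 Flag IP reads and ranked 3 in the Flag list. The member at 96168354 to 96168369 on chromosome 11 had 550 and 1716.

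The rest of the 10 lay on 5 chromosomes. On chromosome 4, the member at 9485272 to 9485273 had 669 V5 and 1536 Flag IP reads. On chromosome 5, the member at 132062012 to 132062027 had 523.9 and 1531.6, and an Olig2 event lay 216 bp from it, just beyond the chaining distance. The 2 on chromosomes 11 (24586127 to 24586132) and 3 (127446691 to 127446788) had 459 and 498 V5 IP reads beside 1810 and 1459.8 Flag IP reads. The last, at 60799583 to 60799594 on chromosome 15, had 446 and 1552.6. In all 10 the nearest V5 and Flag events were within 15 bp, and 9 of the 10 held 1 event of each list.

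By the worse of their ranks in the Hoxc9 lists, the 3 strongest regions in both lists held a listed Olig2 event. They were therefore not members. Their worse ranks were 2, 6 and 6, beside 7 for the strongest member. The region at 103135747 to 103135836 on chromosome 15 had 1597 V5 Hoxc9 and 4764 Flag Hoxc9 IP reads, and its Olig2 events were weak, with 32.3 native IP reads (rank 7546) and 57 V5 IP reads (rank 4193). On chromosome 4, the region at 117003575 to 117003692 had 946 and 2271.5 Hoxc9 IP reads and Olig2 events of 26.9 native and 35.4 V5 IP reads. On chromosome 13, the region at 39615757 to 39615995 had 732 and 2350 Hoxc9 IP reads and a stronger native Olig2 event of 165.2 IP reads (rank 486). The 1000 top events of the V5 Hoxc9 list fell in 968 regions, of which 959 were in both Hoxc9 lists and 600 were members. For the 1000 top Flag events the numbers were 931, 862 and 633. Members made up 79.9% of all regions with both Hoxc9 lists, so their share of such regions was lower at the top of either list. Over all strengths, they were 64.7% of regions with a V5 Hoxc9 event and 15.6% of those with a Flag event.

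At the other end, the weakest members lay at the floor of the lists. The lowest value of a strongest V5 event was 25 IP reads and of a strongest Flag event 24.1. The 3 weakest by worse rank were at 28527689 to 28527751 on chromosome 19, with 36.2 V5 and 24.1 Flag IP reads, at 67145068 to 67145072 on the X chromosome, with 38.1 and 24.1, and at 20207617 to 20207629 on chromosome 5, with 43.6 and 24.2. Over all members, the strongest V5 event had a median of 56 IP reads (middle 90% from 29 to 169, highest 742). The strongest Flag event had a median of 136 (35 to 575, highest 2984). Regions of the V5 list alone had a median of 32, and regions of the Flag list alone a median of 50. Members were thus stronger than regions of 1 Hoxc9 list alone, as a description of regions that had to be in both lists. Regions in both Hoxc9 lists with an Olig2 event were stronger still, as described further on.

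IP reads of the tags rose together across members, with wide scatter. Spearman's rho was 0.620 and Pearson's r on log2 reads 0.664 over 6825 members, with the reads of all events of a list summed per region for these correlations alone. Without the top 10% of either list rho was 0.484 over 5857 members. Per chromosome it ran from 0.569 on chromosome 6 to 0.674 on chromosome 4. Points share the list floors and, as given further on, their control values, so no test was made. The Flag value was a median of 2.31 times the V5 value (middle 90% from 0.815 to 6.72), a ratio that depends on the unknown depths and has no meaning as a level.

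**Figure D1:**
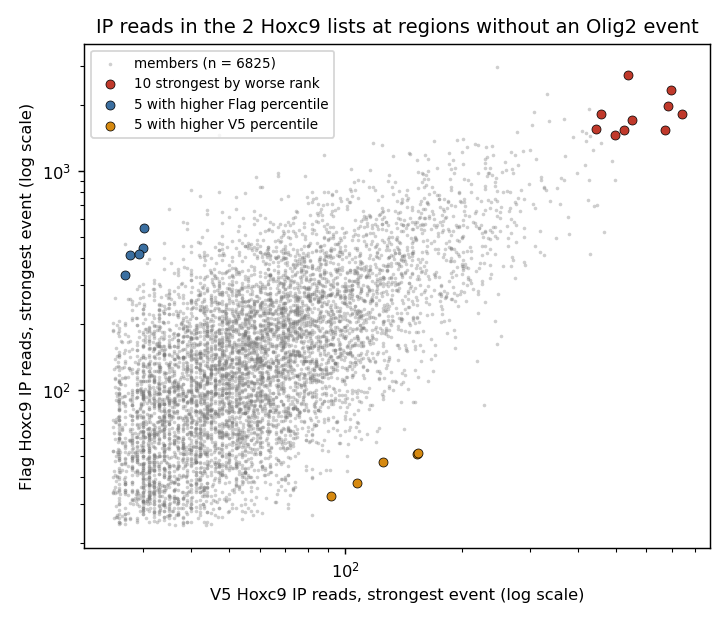
Flag against V5 Hoxc9 IP reads of the strongest event in each member (grey, n = 6825; both axes logarithmic), with the 10 strongest members in red, the 5 whose Flag percentile most exceeds their V5 percentile in blue, and the 5 of the opposite kind in orange. The cloud rises from about the list floors of 25 V5 and 24.1 Flag IP reads to the red points at 446 V5 reads and above, and the blue and orange points lie at its edges.

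Some members were strong in 1 list and near the floor in the other. Percentiles were taken among members, and the 5 with the largest gap each way were named. On chromosome 10, the member at 91436316 to 91436376 had 549 Flag IP reads (percentile 94.2) and 30.1 V5 IP reads (percentile 7.96). On chromosome 9, the member at 64416494 to 64416522 had 414 Flag IP reads and 27.8 V5 IP reads. The other 3, on chromosomes 16, 15 and 1, had 335 to 445.5 Flag IP reads beside 27 to 29.9 V5 IP reads. In all 5 the Flag event nearest to the V5 event lay 28 to 60 bp lower. On chromosome 15 that was the weaker of 2 Flag events, and the one with 418.3 IP reads, at 32400782, lay on the higher side of the V5 event at 32400702.

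Members leaning toward V5 were the opposite case. On chromosome 5, the member at 113470636 to 113470719 had 153 V5 IP reads (percentile 93.6) and 50.8 Flag IP reads (percentile 13.1), and an Olig2 event lay 264 bp away. On chromosome 11, the member at 84243289 to 84243431 had 154 and 51.7. Both of these members held 1 V5 and 2 Flag events, and the Flag value is that of the stronger event alone. The other 3, on chromosomes 8, 6 and 14, had 91.6 to 125 V5 IP reads beside 32.6 to 46.8 Flag IP reads. Each of these 10 members passed both lists, so none of them is a site missing from a list.

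The V5 and Flag events of a member mostly lay close together. The chaining caps the distance between the nearest ones at 200 bp. The nearest V5 and Flag events of a member were a median of 20 bp apart (middle 90% from 2 to 78). Within 10 bp were 28.4% of members (27.3 to 29.5), and 86.0% were within 50 bp (85.1 to 86.8). In 98 members the positions were identical. The Flag event lay at the lower coordinate in 53.6% (52.4 to 54.8) and at the higher in 45.0% (43.8 to 46.1), with a median offset of -3 bp. The distance fell with strength. It was a median of 28 bp in the 25% of members with fewest V5 IP reads (95% interval of the median 26 to 29) and 14 bp in the 25% with most (14 to 15). Ranked by Flag IP reads, the corresponding medians were 26 and 15 bp. Stronger members also had more pairs of events from which the nearest was taken. By V5 IP reads, 15.6% of the weakest 25% and 38.2% of the strongest 25% held 2 or more Flag events. The part of this in the fall was not tested. Per chromosome the median ran from 18 to 22 bp. Regions with both Hoxc9 lists and an Olig2 event had a median of 19 bp, close to the members.

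**Figure D2:**
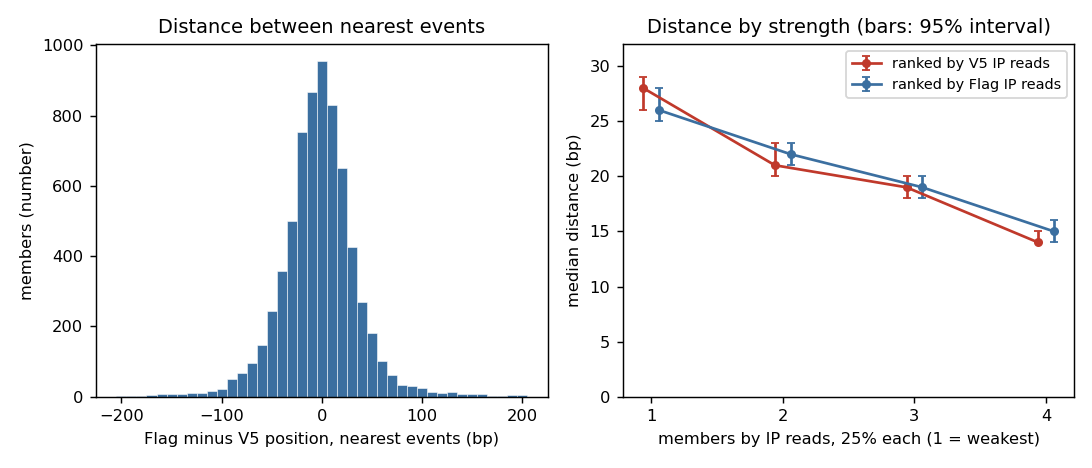
Left, number of members by the signed distance in bp from the nearest V5 to the nearest Flag event; right, the median distance in members split into 4 classes of 25% each, ranked by V5 (red) or Flag (blue) IP reads, with 95% intervals of the median. The histogram peaks at 0 and has few members beyond 100 bp, and the medians fall from 28 to 14 bp (V5 ranking) and from 26 to 15 bp (Flag ranking).

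Few members depended on the exact chaining distance between the tags. Nearest events were 101 to 200 bp apart in 171 members. The farthest apart were at 67659223 to 67659423 on chromosome 2 (200 bp, 27 V5 and 54 Flag IP reads), 84053348 to 84053548 on chromosome 4 (200 bp, 48 and 40.9) and 49954791 to 49954989 on chromosome 9 (198 bp, 39 and 41). All of them were weak in both lists. Just outside, 32 neighbouring pairs of a V5-alone and a Flag-alone region were 201 to 300 bp apart. The closest of these pairs, 202 bp apart on chromosome 4, had its V5 event at 116863155 with 29.5 IP reads and its Flag event at 116862953 with 62.2. The next had gaps of 204 and 205 bp, on chromosomes 12 and 13.

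Most members were a single site in both lists. Exactly 1 V5 and 1 Flag event were found in 5052 members, 74.0% (73.0 to 75.0). A further 1443 members had 1 V5 event and 2 or more Flag events (21.1%), while 49 had 2 or more V5 events and 1 Flag event. Neighbouring Flag events within a member were a median of 126 bp apart (middle 90% from 62 to 210) and never closer than 35 bp, over 1978 such pairs. Neighbouring V5 events were a median of 153 bp apart over 339 pairs. The share of members with 2 or more Flag events rose from 15.6% among the 25% with fewest V5 IP reads to 38.2% among the 25% with most. Extra events were thus more frequent at stronger members, and the V5 list, with fewer events in all, held fewer of them.

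The most divided members held 6 or 7 events. The longest span was 681 bp, at 71577933 to 71578614 on chromosome 13, with 2 V5 and 5 Flag events. The others named for most events, with 3 V5 and 4 Flag events each, were at 82446942 to 82447298 on chromosome 9, at 38755562 to 38756007 on chromosome 7 and at 80266333 to 80266809 on chromosome 16. A member at 73150309 to 73150658 on chromosome 4, with 2 V5 and 4 Flag events, lay within 1 kb of the top-ranked member. Its strongest events had 275.4 V5 and 566.5 Flag IP reads. The median span over all members was 28 bp.

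Members gathered in places along the chromosomes. Of all members, 1507 (22.1%, 21.1 to 23.1) had another member within 10 kb, centre to centre, and fell into 668 stretches of 2 or more. The other 5318 stood alone. With Hoxc9 events above their list's median of control reads left out, 10.5% of the remaining 3274 members had such a neighbour (9.53 to 11.6). The same share was 17.7% in the 5427 regions with both Olig2 lists only and 45.4% in the 32586 of the Flag list alone. It was 8.98% in the 1714 with both Hoxc9 lists and an Olig2 event. These shares move with the number of regions in the class and do not compare like with like.

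A measure free of that difference is the share of regions with an event of a given list 1 to 10 kb away. A V5 Hoxc9 event lay there for 21.2% of members (20.3 to 22.2), beside 15.8% of all regions and 13.4% of regions with both Olig2 lists only. A Flag Hoxc9 event lay there for 49.5% of members, beside 41.3% of all regions and 42.7% of Flag-alone regions. An Olig2 event lay there for 19.4% of members (18.5 to 20.4), beside 19.7% of all regions. It lay there for 30.1% of regions with both Hoxc9 lists and an Olig2 event (28.0 to 32.3). The Hoxc9 shares were as high in that class, at 21.3% for V5 (19.4 to 23.3) and 53.2% for Flag (50.8 to 55.6). Members thus had more Hoxc9 events around them than the average region, as did regions in both Hoxc9 lists with an Olig2 event, and the Olig2 share was higher in the latter. These windows overlap between neighbouring regions, so no test was made.

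The longest stretch held 15 members, at 52111114 to 52163439 on chromosome 6. The next held 11, at 96164685 to 96202522 on chromosome 11. Chromosome 6 carries the HoxA genes and chromosome 11 the HoxB genes in the RefSeq table, and whether the stretches overlap those clusters was not determined, for want of an annotation of the build. The chromosome 6 stretch covered 52325 bp, with V5 IP reads from 35 to 243.8 (median 93) and Flag IP reads from 44 to 724 (median 174.1). Its strongest member by worse rank, at 52128504 to 52128517, had 199 V5 and 724 Flag IP reads. The member at 52132983 had its V5 and Flag event on the same base, with 125 and 281 IP reads.

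The chromosome 11 stretch covered 37837 bp. It held the member at 96168354 already named, and at 96180686 to 96180691 a member with 498 V5 (rank 22) and 904 Flag IP reads (rank 151). At 96164892 to 96164911 a member had 283.5 and 658.8. V5 IP reads in the stretch had a median of 180.5, beside 56 over all members. Flag IP reads had a median of 276, beside 136. In this stretch 8 of the 11 members had V5 IP reads above 100.

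Other lists were present in both stretches. The chromosome 6 stretch held 37 regions of the 4 lists in all. Of these, 13 held an Olig2 event, and 5 of those were in both Hoxc9 lists too. The strongest Hoxc9 region inside it was such a region, at 52140824 to 52140957, with 560 V5 and 735 Flag Hoxc9 IP reads and 103.6 native Olig2 IP reads. In the chromosome 11 stretch, 8 of 23 regions held an Olig2 event, the strongest with 48 native and 44 V5 Olig2 IP reads. Control reads were high in both: median V5 control was 11.8 on chromosome 6 and 8.8 on chromosome 11, beside 3.2 over all members. The lowest V5 folds over control were 3.5 and 5.1 there, beside 3.3 over all members. Median V5 folds were 11.1 on chromosome 6 and 20.9 on chromosome 11, beside 13.4 over all members. The part of control reads in these stretches was not tested.

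**Figure D3:**
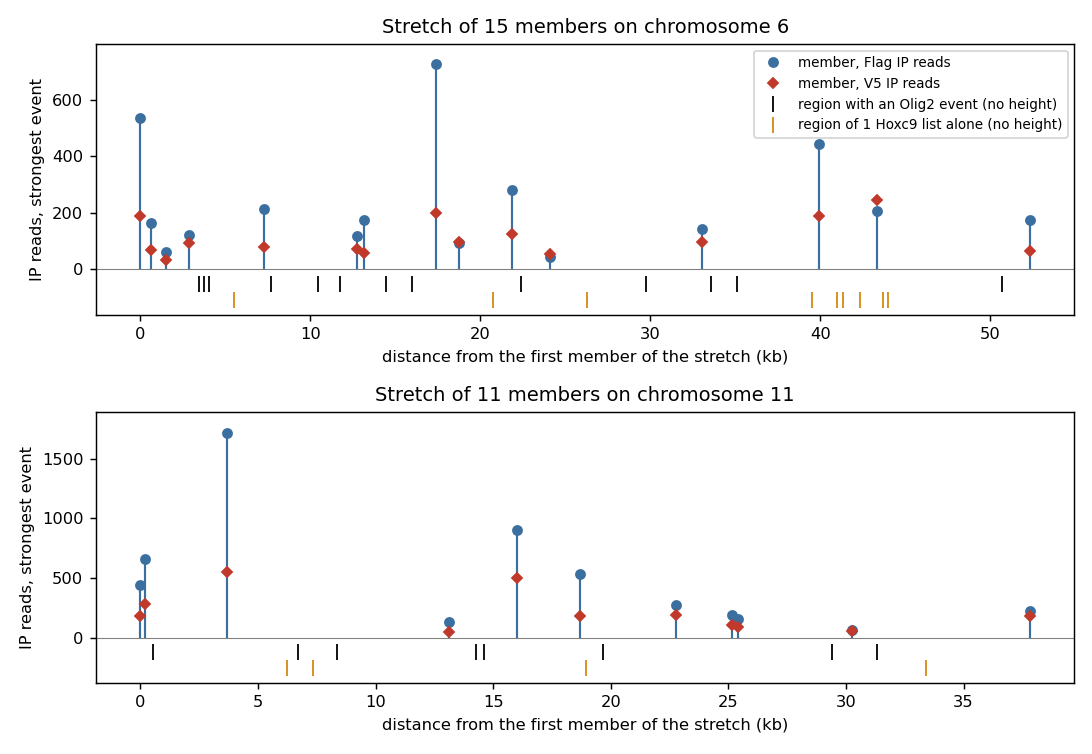
IP reads of the strongest Flag (blue) and V5 (red) event of each member against distance in kb from the first member, for the stretches of 15 members on chromosome 6 and 11 on chromosome 11. Black ticks mark regions with an Olig2 event and orange ticks regions of 1 Hoxc9 list alone; the tallest Flag values are 724 on chromosome 6 and 1716 on chromosome 11, and Olig2 ticks lie between members along both.

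A stretch of 7 members and 1 of 6 on chromosome 18 were counted but are not named. The 3 further named stretches held no Olig2 event. They had 6 members at 18177064 to 18203938 on chromosome 16, 6 at 75896882 to 75918142 on chromosome 2 and 5 at 108017042 to 108023466 on chromosome 11. The chromosome 2 stretch was the strongest of these, with V5 IP reads from 49 to 310 and a median of 386 Flag IP reads. The last one was the densest, with 5 members in 6424 bp and no other region of the 4 lists between them. It was weaker than members at large, with V5 IP reads from 25.1 to 87.9. Their median was 48.2, beside 56 over all members, and the Flag median was 102, beside 136. Its V5 control reads had a median of 0.8 and its lowest V5 fold was 8.2. Another stretch of 5 members was not named.

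By the rule, no member had an Olig2 event within 200 bp. The nearest Olig2 event was a median of 38949 bp away, and 5.76% of members had one within 1000 bp (5.23 to 6.34). An Olig2 event lay 1 to 10 kb away for 19.4% of members, beside 19.7% of all regions and 15.8% of Flag-alone regions. Distance from Olig2 events beyond the rule was thus not particular to members. At the border of the rule, 158 members had an Olig2 event 201 to 400 bp away. The 3 nearest were at 158544509 to 158544512 on chromosome 1 (202 bp, 142 V5 and 66.1 Flag Hoxc9 IP reads), 133150579 to 133150609 on chromosome 7 (202 bp, 75 and 437.4) and 120309408 on chromosome 10 (204 bp, 76.3 and 96.9). With sheared fragments of about 500 bp, such neighbours are within 1 fragment length of each other.

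Regions with both Hoxc9 lists were next compared with and without an Olig2 event. Hoxc9 reads did not enter that part of the rule, but Olig2 events took part in the chaining. The median span was 28 bp in members and 105 bp in regions with Olig2. Exactly 1 V5 and 1 Flag event were found in 74.0% and 62.5%. The strongest event was thus more often picked from several in regions with Olig2, and the effect of this on the medians below was not tested. Members had fewer Hoxc9 IP reads than the regions with Olig2. The V5 median was 56 in members and 79 in the 1714 others, and it was lower in members on 20 of 20 chromosomes. The Flag median was 136 against 166, lower in members on 18 of 20. Control reads differed in the same direction, with V5 medians of 3.2 in members and 8.8 in the others and Flag medians of 2.1 and 5.1. With 1 list per condition this describes these lists, and no test over replicates was possible.

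The member share fell as Hoxc9 reads rose. Of the 10% of regions with fewest V5 IP reads (25 to 32), 91.0% were members (88.9 to 92.7). Of the 10% with most (141 to 1597), 62.3% were members (59.0 to 65.5). Each of the 9 steps between went down. Ranked by Flag IP reads, the share fell from 87.6% (85.2 to 89.6) to 73.3% (70.2 to 76.2). Median V5 control reads rose along the V5 ranking from 0 to 11.8.

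The fall was much smaller where control reads were low. Among the regions whose strongest events had control reads at or below the list median in both lists (2.9 for V5 and 2.4 for Flag), the member share was 90.6% among the weakest 10% by V5 IP reads (87.1 to 93.2) and 85.8% among the strongest 10% (81.7 to 89.0). By Flag IP reads it was 90.1% and 89.5%, with no fall beyond the intervals. The V5 medians in this subset were 41 in 3110 members and 47 in 401 regions with Olig2. The Flag medians were 106 and 104. The gap in IP reads between members and regions with Olig2 was thus smaller for V5 and not seen for Flag at low control. This subset was chosen after the values were seen, and it also holds fewer strong regions.

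**Figure D4:**
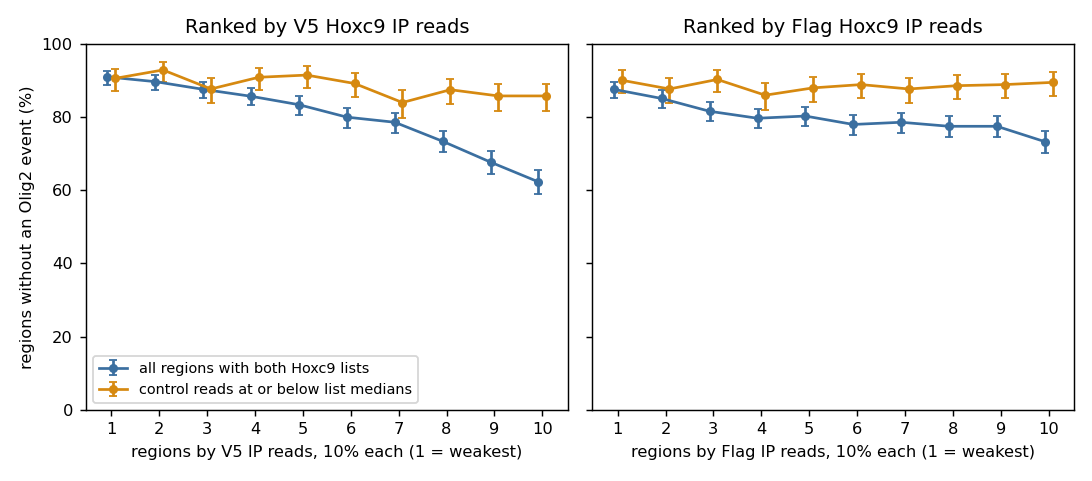
Percentage of regions with both Hoxc9 lists that lack an Olig2 event, in 10 classes of 10% each from weakest to strongest V5 (left) or Flag (right) Hoxc9 IP reads, for all 8539 regions (blue) and for those with control reads at or below the list medians (orange); bars are Wilson 95% intervals. The blue points fall from 91.0% to 62.3% (V5) and from 87.6% to 73.3% (Flag), and the orange points stay between 84.0% and 92.9%.

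The balance of the tags also differed between these groups. The Flag over V5 ratio of IP reads was a median of 2.31 in members and 2.06 in regions with Olig2. Depth cancels in that comparison because each ratio uses the same pair of lists. The ratio was higher in members on 17 of 20 chromosomes, and chromosomes 4, 13 and X went the other way. After subtracting control reads from IP reads the medians were 2.46 and 2.23, and with low control in both lists 2.38 and 2.18. With only as many top Flag events as the V5 list holds, they were 3.24 and 2.52, so the size of the difference (0.254 over whole lists, 0.719 here) depends on where the Flag list ends. By Olig2 list, it was 2.22 in regions with a native Olig2 event alone, 2.01 with both Olig2 lists and 1.78 in the 97 with a V5 Olig2 event alone. The middle 50% of members ran from 1.44 to 3.61, far wider than any of these gaps.

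**Figure D5:**
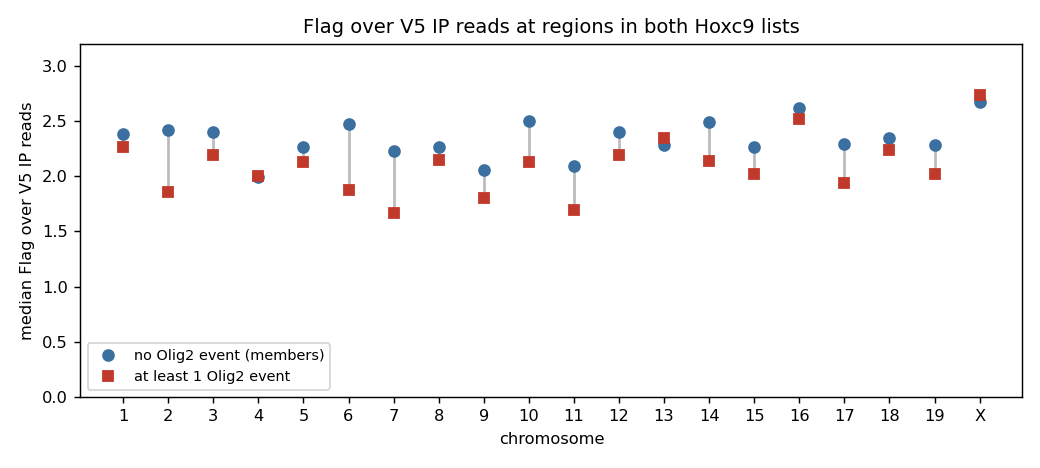
Median ratio of Flag to V5 Hoxc9 IP reads per chromosome, at regions in both Hoxc9 lists without (blue circles, members) and with (red squares) an Olig2 event; grey lines join the pair. Blue lies above red on 17 of 20 chromosomes, and chromosomes 4, 13 and X are the exceptions.

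By fold, members stood further above their control than the regions with Olig2, which had more control reads. The deposited V5 −log10 q of the strongest event went the other way. Its median was 5.13 in members and 6.40 in regions with Olig2. The authors' fold of IP over control at the strongest event was a median of 13.4 (V5) and 57.1 (Flag) in members, beside 10.4 and 34.7 in regions with Olig2. A fold of 10 or more in both lists was found in 67.7% of members (66.5 to 68.8), beside 64.2% of all regions with both Hoxc9 lists and 50.5% of those with Olig2 (48.1 to 52.8). The placeholder 9999.9 at control 0 was counted as 10 or more, here and in the fold limit used further on. Its part in the gap between the groups was not tested. Control reads of 0 in both lists were found in 17.6% of members (16.8 to 18.6), beside 15.7% of all such regions and 8.05% of those with Olig2. Members with most control reads were at 44386475 to 44386491 on chromosome 19 (33.2 V5 and 41.5 Flag control reads), at 97647446 to 97647527 on chromosome 5 (53 and 17.9) and at 96164685 to 96164688 on chromosome 11 (35.7 and 24.6). All 3 were strong in IP reads too, with V5 folds of 7.9, 5.4 and 5.1.

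The control values of the Hoxc9 lists moved together, most closely where the events lay close. Over all V5 Hoxc9 events, the most frequent control values were 2.9 (22.0% of events), 0.0 (21.5%), 5.9 and 8.8, and over Flag events 0.0, 2.1, 4.2 and 6.2. In the 4364 members with 1 event of each list within 50 bp, both lists gave 0 at 804, and 1 list alone gave 0 at 130. Where both were above 0 in this subset, the V5 control value was a median of 1.40 times the Flag value, and 72.9% of the 3430 ratios were within 10% of that. Spearman's rho between the control values was 0.894 there. Over all 6825 members, whose strongest events can lie farther apart, 57.0% of 5234 ratios were within 10% of the same median of 1.40, rho was 0.742 and 387 members had 0 in 1 list alone. The control library is not given in the sources used here. Control values at a member, and the folds that use them, were therefore not counted as separate measurements from the V5 and the Flag list.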

How the data were processed

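ChIP-seq events of 4 samples were analysed. Reads were aligned with Bowtie 0.12.5 to mm9, per the submitters' processing notes. The caller's settings and control library were not stated (not given in the sources used here). The authors deposited event tables with estimated counts, fractional in places, of the IP and control reads at each event. The fold (ratio) of IP over control, listed mostly as 9999.9 at control 0, and the −log10 of p and q for each event are also as deposited by the authors. The 22 events on unplaced contigs were left out. Positions in mm9 are copied from the tables, whose first base may be numbered 0 or 1.

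Events were chained with a 200 bp gap. A region's value in a list is that of its strongest event, except that correlations of IP reads used the sum over its events. Medians carry order-statistic 95% intervals. The chaining was tested on simulated lists. No test across regions was made, since members were chosen by the same lists. The members and lists were chosen with earlier results of these data known. Regions were named by rule: the 10 strongest, 5 with most events, 5 with the largest percentile gap each way, the 5 longest stretches (gaps of 10 kb or less), those at the borders of the rule, those with most control reads and the weakest. Chromosome 18 was counted but not named. Planned motif and gene-list counts were not run, for want of the mm9 genome; the RefSeq table (another build) gave only the chromosomes of Hox genes. Alternatives were other gaps (100 and 500 bp), fold, read and control limits, equal list length and a 1000 bp distance from Olig2 events. Values were computed in Python 3.11.15 with pandas 2.3.3, numpy 2.4.6 and SciPy 1.17.1, and plotted with matplotlib 3.10.9.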

Additional observations from a re-analysis of the deposited data

Results flagged for a closer look

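On an unplaced contig of chromosome 9, which the rule for regions leaves out, 1 pair of V5 and Flag Hoxc9 events lay within 200 bp of each other. This is signal in data that the report did not use. The V5 event at 434043 had 129 IP and 14.7 control reads, and the Flag event at 434052 had 480 IP and 10.4 control reads. It was the only such pair among the 15 events of the Hoxc9 lists on these contigs, and no Olig2 event was listed within 200 bp of it.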

How the results depend on the processing

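No paired analysis was possible because there was 1 list per condition, and for the same reason no list could be left out of a group. Of the 8 values, the 2 that have a sign (rho and the ratio difference) kept it under the 7 alternatives; the others are counts, distances or percentages, which cannot reverse. The member count stayed within 1.5 times of 6825 in 4 alternatives, with 4693 at a fold of 10 or more as the lowest of these, and fell further in 3. Of the 49 other recomputed values, 18 stayed within the 95% interval of the reported one and 31 did not. Of the 8, 3 (the member share, the member share in the strongest 10% by V5 reads and the ratio difference) were added after seeing the data. A gap of 100 bp gave 85.4% single event pairs, 26.0% with a neighbour, a member share of 82.3% and 66.9% in that strongest 10%. A gap of 500 bp gave 62.1%, 16.1% and 77.3% for the first 3. A fold of 10 or more in every list gave a rho of 0.665, 16.8% with a neighbour, a member share of 83.9% and 70.2% in the strongest 10%. At least 50 IP reads in the Hoxc9 lists left 3837 members, a distance of 17 bp, rho 0.542, 71.0% single pairs, 18.6% with a neighbour and a member share of 74.4%. Holding the Flag list to the V5 list's length left 3980 members, 18 bp, rho 0.524, 79.0% single pairs, 20.0% with a neighbour, a member share of 77.6% and a ratio difference of 0.719 in place of 0.254. Dropping Hoxc9 events above their list's median control left 3274 members, 22 bp, rho 0.546, 80.5% single pairs, 10.5% with a neighbour, a member share of 88.2% and 84.6% in the strongest 10%. Keeping regions with no Olig2 event within 1000 bp gave 20.9% with a neighbour, a member share of 75.3% and 57.7% in the strongest 10%. The read, length and control limits leave fewer events by construction; for the other moves the cause was not tested. Depth is unknown, so how many weak regions of 1 list fell below the threshold of the other cannot be told. The planned motif shares were not run.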
